A study of Homo sapiens with 6 samples.

Results

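The 10 genes described here encode the telomerase core (TERT and TERC), the shelterin complex (TERF1, TERF2, TERF2IP, TINF2, ACD and POT1) and the ATRX-DAXX histone chaperone. They were chosen by name, and all 10 symbols matched 1 Ensembl gene each among the 67140 genes of the count list. RNA-Seq was performed on U2OS, a human osteosarcoma line labelled as wild type, in 3 groups of 2 libraries: cells without treatment, cells given 1.5 ug/ml adriamycin (doxorubicin) and cells given 100 uM etoposide, both drugs for 4 h. Adriamycin and etoposide are poisons of topoisomerase II, the enzyme that passes one DNA duplex through a break in another. The members were read in the etoposide libraries, since the other 4 libraries were analysed over a stretch of 220 to 292 genes at the start of the list, which holds 0 of the 10 members. Their values therefore describe 1 condition, without an untreated level beside them.

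Telomeres are arrays of a short repeat that shorten each time a chromosome is copied. Most cancers restore them with telomerase, a reverse transcriptase (TERT) that copies a template carried by its RNA subunit (TERC). U2OS instead uses alternative lengthening of telomeres (ALT), in which telomeres are extended by recombination, and it is a standard model of ALT that lacks functional ATRX protein. Shelterin coats telomeres in cells of either kind and keeps chromosome ends from being treated as breaks.

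The etoposide libraries held 21450766 and 14244235 counts, and counts were scaled to the total of their library (CPM), for which 1 CPM stood for about 21.5 and 14.2 counts. Genes were compared with each other by their level, the CPM per kilobase of exon sequence with overlapping exons merged. Median levels over the 19892 protein-coding genes were 1.65 on this scale, and 54.4% of these genes had a level of at least 1 in both libraries. Over the 13715 of them with at least 10 counts in both libraries, the median was 4.75, and 78.9% had such a level. The samples are labelled as bone and as epithelial. Of 7 mesenchymal markers, 5 had a level of at least 1 in both libraries (COL1A1 393 ± 12.7, SD, n = 2), while RUNX2 was at 0.583 ± 0.0117 and COL1A2 had 5 and 2 counts. Of 6 epithelial markers 2 reached it, EPCAM and CLDN4, and ESRP1 had 1 count in each library. Of 3 blood markers none did, and HBB had 0 counts in both.

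TERC, the RNA subunit and template of telomerase, had 0 counts in both etoposide libraries, which allows a level of up to 0.140 and 0.211 CPM (3 counts each, counting error only). TERC (ENSG00000270141) is a gene of 541 bases without introns on the minus strand of chromosome 3 of GRCh38, at bases 169764520 to 169765060. Its first 100 bases are shown because they hold the template, from chr3:169764961-169765060 in the GENCODE release 44 transcript, 5′ to 3′. Capitals mark the template, the longest stretch of the transcript that matches the telomeric repeat, 11 bases at positions 46 to 56 from the 5′ end.
TERC: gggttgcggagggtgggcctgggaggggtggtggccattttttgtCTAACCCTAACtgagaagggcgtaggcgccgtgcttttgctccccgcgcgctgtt

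The count of TERC touches on how it was measured. The libraries were made from poly-A RNA, and mature TERC has no poly-A tail. The count list also holds a second entry for the same RNA, Telomerase-vert (ENSG00000277925), whose 438 bases at 169764610 to 169765047 cover 81.0% of TERC on the same strand. Telomerase-vert had 0 counts in both libraries as well. A read that falls on both entries is left uncounted under the default setting of featureCounts, and whether this setting was used is not given in the sources used here. Among protein-coding genes, 66.0% of the 600 that share at least 80% of their exon bases with another listed gene on the same strand had 0 counts in both libraries, against 10.4% of the 16406 that share none. The part of either circumstance in the TERC value was not tested.

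TERT, the catalytic subunit, had 0 counts in the first etoposide library and 2 in the second. The second count is 0.140 CPM, with an exact 95% binomial interval of 0.0170 to 0.507, and the 0 in the first library allows up to 0.140 by the floor of 3 counts used for TERC. Both libraries were under 3 counts, and a difference between them was not detectable at this depth. TERT (ENSG00000164362) lies on the minus strand of chromosome 5 at bases 1253147 to 1295068, and 1.79% of its exon bases overlap another listed gene, a lncRNA gene on the opposite strand that had 0 counts. Sharing of exons of the kind found at TERC was therefore small at TERT.

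The promoter of TERT is shown because it belongs to the protein-coding member with almost no counts and, of the 5 members with an entry in the RefSeq promoter table, is the one that holds an E-box. The 250 bases before the RefSeq start site lie at chr5:1295069-1295318 of GRCh38.p14 and are read on the minus strand. Capitals mark matches on either strand to an E-box (CACGTG), the site of MYC and MAX proteins, and to a GC box (GGGCGG or its complement CCGCCC), the site of SP1.
TERT: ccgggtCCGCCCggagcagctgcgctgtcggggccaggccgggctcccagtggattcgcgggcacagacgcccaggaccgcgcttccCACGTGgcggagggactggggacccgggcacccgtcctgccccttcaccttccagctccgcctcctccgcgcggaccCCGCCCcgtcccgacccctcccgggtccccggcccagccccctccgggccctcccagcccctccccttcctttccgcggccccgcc

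The E-box lies at −163 to −158 from the start site, and CACGTG occurs in 7.26% of the 35116 RefSeq promoters searched, each with 250 bases before and 50 after the start. A GC box occurs in 44.95% of them, and the TERT window holds 3, of which 2 lie wholly within the printed bases. The TERT window is 77.3% G or C, against a median of 58.7% over all promoters. POT1, ACD, TINF2 and TERF2IP had windows of 60.3% to 70.0% G or C with 1 or 2 GC boxes and 0 E-boxes. TERC, TERF1, TERF2, ATRX and DAXX have no entry in this table. These matches describe letters and not binding.

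The genes around TERT and TERC were at very different levels, and were examined after the values of TERT and TERC were seen. CLPTM1L, a transmembrane protein gene 22.7 kb from TERT, had 12396 and 7613 counts, a level of 84.9 ± 4.69 (SD, n = 2) that lay above 98.2% of protein-coding genes. On the other side, SLC6A18, an amino acid transporter gene 6.96 kb away, had 0 counts in both libraries, and SLC6A19 had 6 and 0. SLC6A3, the dopamine transporter gene, had 4 and 1 counts, whereas LPCAT1 and SLC12A7, 161 and 141 kb away, were at 13.4 ± 0.0443 and 11.1 ± 0.815. Near-silent and abundant genes thus stood side by side around TERT. Next to TERC, ACTRT3, 1.86 kb away, had 0 counts in both libraries, and MYNN, 8.34 kb away, had 379 and 266 counts, a level of 3.52 ± 0.138.

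**Figure D1:**
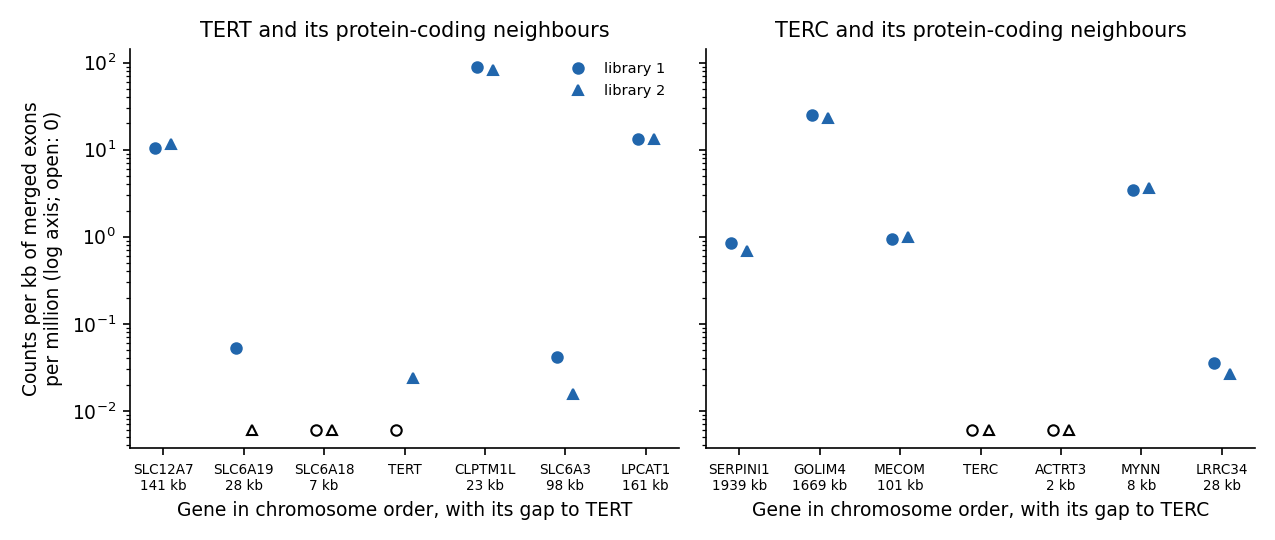
Level in each etoposide library (log axis, CPM per kilobase of merged exons) of TERT, TERC and the 3 protein-coding genes on each side, in chromosome order with the gap to the central gene; open symbols at the lower edge stand for 0 counts. CLPTM1L stands at 84.9 on average beside TERT, while SLC6A18 and ACTRT3, the nearest genes, are at 0.

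Of the 6 shelterin genes, all had at least 10 counts in both libraries, 5 had a level of at least 1 in both, and their median level was 8.55. Such a level was found for 54.4% of all protein-coding genes and for 78.9% of those with at least 10 counts in both libraries. The medians of these 2 sets were 1.65 and 4.75. TERF1 and TERF2 encode TRF1 and TRF2, the subunits that bind the double-stranded repeat. TERF2 (ENSG00000132604, chromosome 16, bases 69355567 to 69408571) had 1422 and 898 counts, or 66.3 and 63.0 CPM, and a level per kilobase of 11.5 ± 0.408 (SD, n = 2). TERF1 (ENSG00000147601, chromosome 8, bases 73008856 to 73048123) had 778 and 417 counts, or 36.3 and 29.3 CPM, and a level of 2.09 ± 0.315. TERF1 was lower than TERF2 in both libraries, and the libraries of the 2 genes did not overlap. TERF1 has 7 annotated processed pseudogenes, which together had 13 and 8 counts, few beside its own. The multi-mapping setting is not given, so these counts do not show how reads that fit both TERF1 and a copy were handled.

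How far TERF1 lay below TERF2 depended on the exon length assigned to it. Its merged exons sum to 15706 bases, against 3329 in its canonical transcript, the one that the Ensembl annotation puts forward for each gene. TERF2 was 5.10 and 6.003 times TERF1 per kilobase of merged exons, and 2.03 and 2.39 times per kilobase of the canonical transcripts. The direction was the same in either library with both lengths and also in CPM, where TERF2 was 1.83 and 2.15 times TERF1.

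TERF2IP, ACD and TINF2 encode RAP1, which binds TRF2, and TPP1 and TIN2, which bridge the double-strand binders to POT1. TERF2IP (ENSG00000166848, chromosome 16, bases 75647773 to 75761872) had 1202 and 801 counts, or 56.0 and 56.2 CPM, and a level of 12.7 ± 0.0317 (SD, n = 2). TERF2, whose protein recruits RAP1, stood at 0.929 and 0.880 times TERF2IP per kilobase. In CPM the direction was the opposite, with TERF2 at 1.18 and 1.12 times TERF2IP. ACD (ENSG00000102977, chromosome 16, bases 67657512 to 67660810) had 959 and 605 counts and a level of 13.5 ± 0.491. TINF2 (ENSG00000092330, chromosome 14, bases 24238286 to 24242663) had 534 and 347 counts and a level of 5.63 ± 0.0862. ACD was thus 2.44 and 2.37 times TINF2 in the 2 libraries. For TINF2, 21.9% of exon bases overlap GMPR2 on the opposite strand, which had 577 and 367 counts. For TERF2IP, 3.98% overlap KARS1 on the opposite strand, which had 6673 and 4458 counts. For ACD, 1.80% overlap CARMIL2 on the opposite strand, which had 347 and 197 counts. Since the strand setting of the counting is not given, reads in these overlaps cannot be told apart.

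POT1, which binds the single-stranded overhang at the chromosome end, was the lowest of the shelterin genes. POT1 (ENSG00000128513, chromosome 7, bases 124822386 to 124929983) had 169 and 120 counts, or 7.88 and 8.42 CPM. Its level per kilobase was 0.904 and 0.966, with a mean of 0.935 ± 0.0443 (SD, n = 2), so it was the shelterin gene just under 1, and the next above was TERF1. ACD, whose protein partners POT1, was 15.4 and 13.7 times POT1 per kilobase of merged exons. With the canonical transcript POT1 stood at 2.08 ± 0.0984, above 1 in both libraries, and ACD was 14.7 and 13.1 times POT1. POT1-AS1, an antisense gene that overlaps 1.27% of its exon bases, had 12 and 10 counts.

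**Figure D2:**
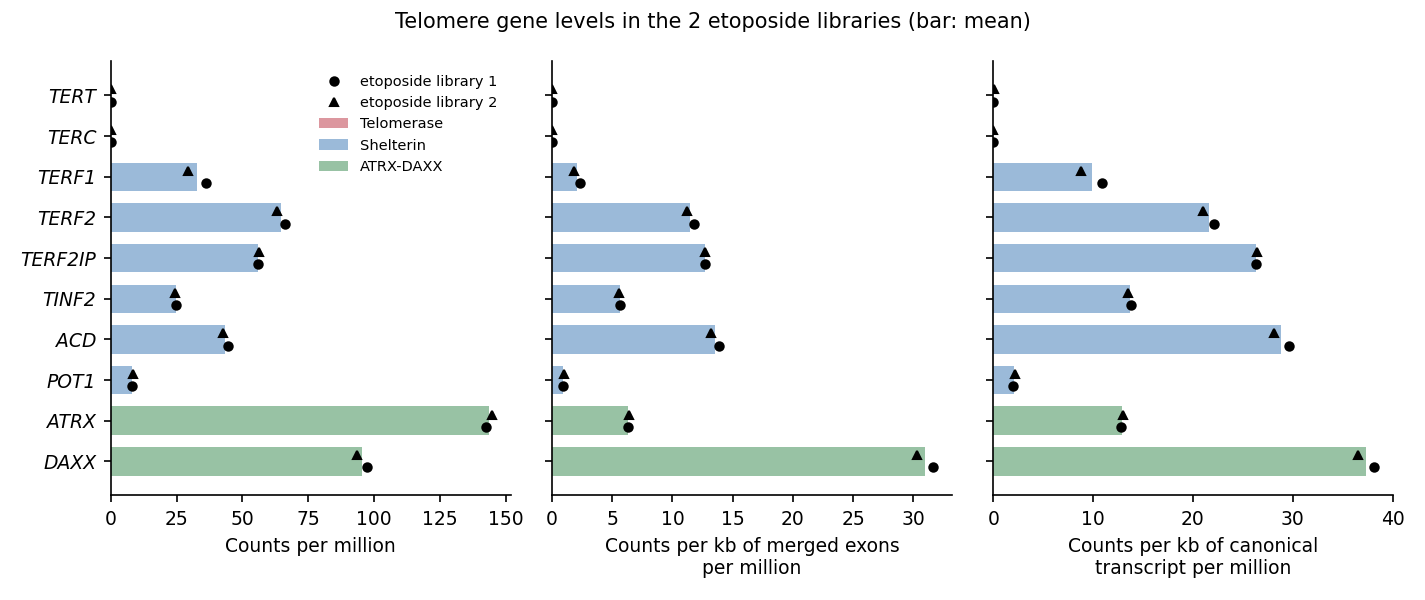
Levels of the 10 genes in the 2 etoposide libraries, as CPM (left), per kilobase of merged exons (middle) and per kilobase of the canonical transcript (right); bars are means and symbols the libraries. ATRX leads in CPM with 144 on average, DAXX leads per kilobase on both lengths, POT1 is the lowest shelterin gene, and TERT and TERC lie at 0 on this scale.

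ATRX and DAXX form a chaperone that places the histone variant H3.3 at telomeres and other repeats, with ATRX as the chromatin remodeller and DAXX as the H3.3 binder. ATRX RNA was present in both libraries. ATRX (ENSG00000085224, chromosome X, bases 77504880 to 77786233, minus strand) had 3062 and 2061 counts, or 143 and 145 CPM, the most counts of the 10 genes in both libraries. Its level per kilobase of merged exons was 6.32 ± 0.0605 (SD, n = 2), above 70.4% of protein-coding genes. Against genes of any type with at least 10 counts in both libraries, it lay above 63.0%. The counts are summed over the whole gene, so they do not show which exons the reads came from, and protein was not measured. None of its exon bases overlap another listed gene.

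DAXX (ENSG00000204209, chromosome 6, bases 33318558 to 33323016) had 2092 and 1331 counts, or 97.5 and 93.4 CPM. Its level of 31.0 ± 0.936 per kilobase (SD, n = 2) was the highest of the 10 genes, above 93.2% of protein-coding genes. Per kilobase of merged exons DAXX was 5.04 and 4.76 times ATRX, and per kilobase of the canonical transcripts 2.98 and 2.82 times. In CPM the order was the opposite, with DAXX at 0.683 and 0.646 times ATRX, as the merged exons of ATRX sum to 22740 bases and those of DAXX to 3084. Of the DAXX exon bases, 14.3% are shared with a readthrough gene on the same strand that had 0 counts.

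From the highest level per kilobase down, the order was DAXX, ACD, TERF2IP, TERF2, ATRX, TINF2, TERF1, POT1, TERT and TERC. For the neighbours from DAXX to POT1, and for POT1 and TERT, the libraries of the 2 genes did not overlap, although the steps were small between ACD and TERF2IP (1.07-fold), TERF2IP and TERF2 (1.11-fold) and ATRX and TINF2 (1.12-fold). TERT and TERC overlapped, as both had 0 counts in the first library. With the canonical transcript, ATRX and TINF2 changed places at a ratio of 1.06, and the other genes kept their rank. With the longest transcript, ACD moved from rank 2 to rank 4, and TERF1 and TINF2 changed places with overlapping libraries. The order of DAXX at the top per kilobase and of POT1, TERT and TERC at the bottom was the same with all 3 lengths.

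The gap between the 2 etoposide libraries was small for most members. Over 8 members with at least 10 counts in both libraries, the log2 ratio of CPM ranged from −0.097 for POT1 to 0.31 for TERF1, and 0 of 8 were over 2-fold apart. Across the 17207 genes with that many counts the SD of the ratio was 0.34, and 402 of them (2.34%) lay more than 2-fold apart. TERF2IP was the most even member, with a log2 ratio of −0.0051, and 1.59% of genes had a smaller gap. TERF1 was the least even, and 75.1% of genes had a smaller gap. Both shares refer to all 17207 genes, which include genes with fewer counts than any of the 8 members. All 8 members reached 100 counts in each library. Over the 11117 genes that did so, the SD of the ratio was 0.19. Of the members, only TERF1, at 0.31, had a log2 ratio larger than this SD.

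**Figure D3:**
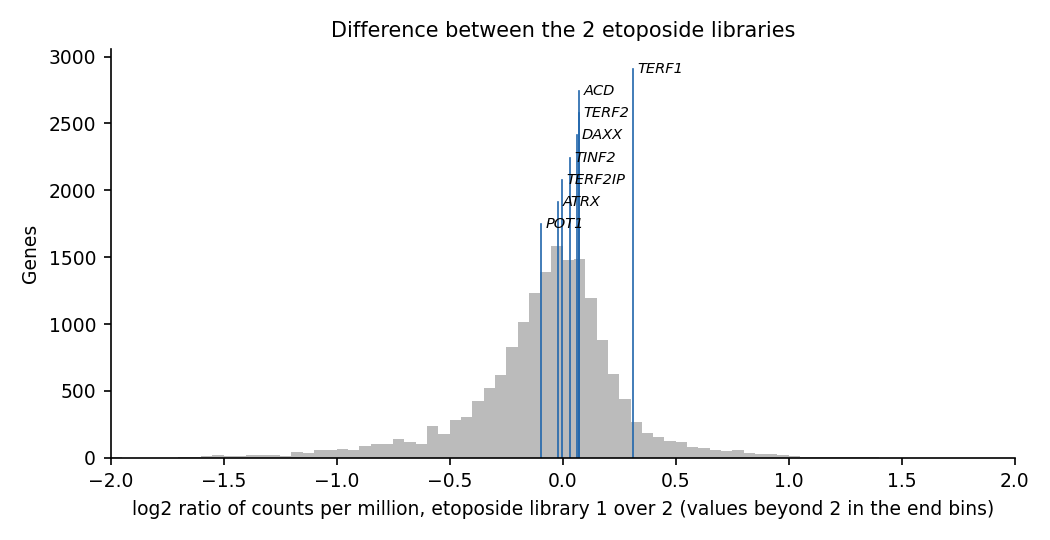
Histogram of the log2 ratio of CPM between the etoposide libraries over 17207 genes with at least 10 counts in both, with the 8 members that have as many marked by lines. The members lie between −0.097 (POT1) and 0.31 (TERF1), and 7 of the 8 lie within 0.1 of 0.

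Genes that assemble telomerase were present at widely different levels in the same libraries in which TERT and TERC had 0 to 2 counts. All 10 genes of this list had a level of at least 1 in both libraries, with a median of 22.0. The median was 1.65 over all protein-coding genes and 4.75 over those with at least 10 counts in both libraries. The shares with a level of at least 1 in both were 54.4% and 78.9%. NHP2 and NOP10, which bind the H/ACA domain of TERC and of small nucleolar RNAs, stood at 65.7 ± 7.17 and 33.4 ± 5.33 (SD, n = 2 in each case), and the ATPase gene RUVBL2 at 52.8 ± 4.56. These proteins also serve ribosomal RNA modification or other complexes, so their levels are not particular to telomerase. The lowest 3 were SHQ1 at 5.17 ± 0.439, NAF1 at 4.61 ± 0.753 and PARN, a deadenylase that matures TERC, at 1.65 ± 0.0456. NAF1 and PARN lay under the median of 4.75, and PARN was no higher than the median over all protein-coding genes.

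Of 12 genes for telomere replication and capping, 10 had a level of at least 1 in both libraries, and the median was 3.16. Over all protein-coding genes the share was 54.4% and the median 1.65. Over those with at least 10 counts in both libraries the share was 78.9% and the median 4.75. DCLRE1B, which encodes the nuclease Apollo that TRF2 recruits, was the highest at 20.2 ± 0.780 (SD, n = 2). It was followed by TNKS2, a tankyrase that modifies TRF1, at 9.16 ± 0.489, and PINX1 at 5.50 ± 1.41, for which 2 identifiers carry the symbol and the one with counts is given. STN1, TEN1 and CTC1 encode the CST complex that fills in the C-rich strand. STN1 was at 1.46 ± 0.103, and TEN1 had 0 counts in both libraries. The helicase gene RTEL1 had 52 and 43 counts, a level of 0.319 ± 0.0492.

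Genes of ALT recombination, such as the BLM-TOP3A-RMI dissolvase, the MRE11 complex, SMC5/6 and PML body proteins, were present nearly throughout. Of 21 genes, 20 had a level of at least 1 in both libraries, and the list median was 5.49. The share was 54.4% and the median 1.65 over all protein-coding genes. Among the 13715 with at least 10 counts in both libraries the share was 78.9% and the median 4.75. All 21 genes of the list had at least 10 counts in both libraries. Among the highest were RMI1, a subunit of the dissolvase, at 13.0 ± 1.08 (SD, n = 2) and the SUMO ligase gene NSMCE2 at 10.4 ± 0.904. FANCM and SMARCAL1, which remodel stalled forks, were among the lowest at 1.94 ± 0.0609 and 1.80 ± 0.00228. RAD50 was the only gene of this list under 1 in both libraries, with 125 and 80 counts and a level of 0.542 ± 0.0141.

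H3.3, the histone that ATRX and DAXX deposit, is encoded by H3-3A and H3-3B. H3-3B was at 110.3 ± 5.88 and H3-3A at 65.7 ± 2.64 (SD, n = 2), the highest of 8 genes for H3.3 deposition and heterochromatin. All 8 had a level of at least 1 in both libraries. This level was reached by 54.4% of all protein-coding genes and by 78.9% of those with at least 10 counts in both libraries. UBN1, HIRA and CABIN1 belong to the other H3.3 chaperone complex, which acts at genes. UBN1 was at 16.4 ± 1.09 and HIRA at 4.90 ± 0.609, while ASF1A, which hands histones to it, was at 5.45 ± 0.342 and SETDB1, a histone methyltransferase gene, at 3.11 ± 0.463.

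**Figure D4:**
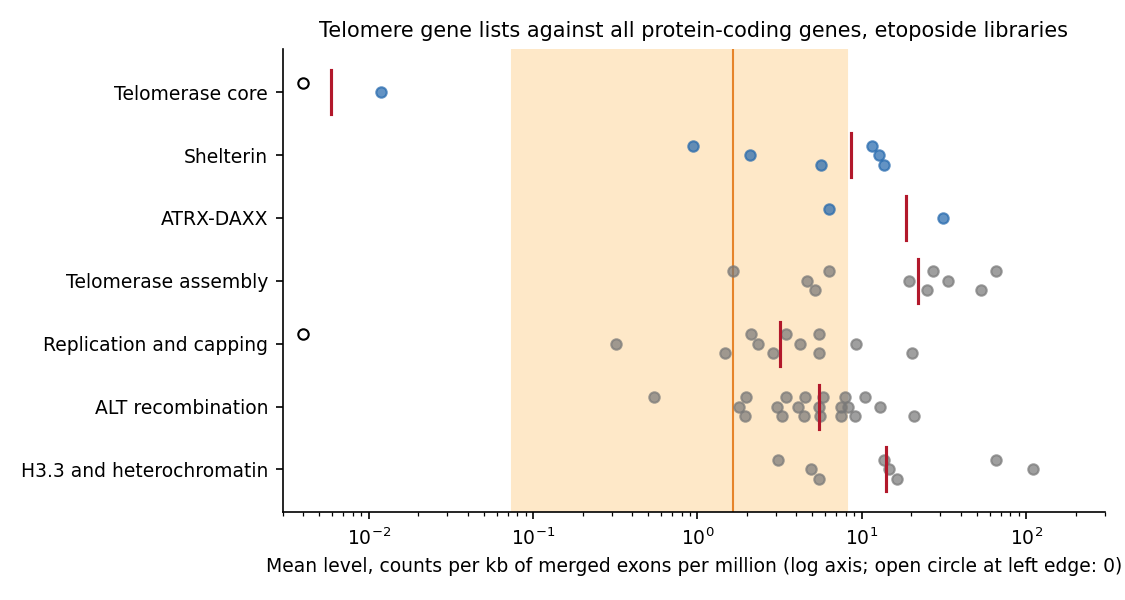
Mean level of each gene over the 2 etoposide libraries (log axis, CPM per kilobase of merged exons) for the members (blue) and the other lists (grey); red bars are list medians, the shaded band holds the middle of all protein-coding genes with a line at their median of 1.65, and open circles at the left edge are genes at 0. The telomerase assembly genes have a median of 22.0 while TERT and TERC lie at the left.

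The 3 genes of these lists that were under 1 in both libraries, TEN1, RTEL1 and RAD50, each share most of their exons with another listed gene on the same strand. TEN1 shares 75.9% of its exon bases with the readthrough gene TEN1-CDK3, which had 23 and 20 counts. RTEL1 shares 52.9% with RTEL1-TNFRSF6B, which had 144 and 88 counts, and RAD50 shares 76.9% with a readthrough gene (ENSG00000283782) with 0 counts. Of the other 48 genes of the 4 lists, 1 shares at least 50%, HIRA, with 66.5% in C22orf39. The higher cutoff used for protein-coding genes beside TERC is not reached by TEN1, RTEL1 or RAD50. Among the members, TERC, TERT and POT1 were also under 1 in both libraries per kilobase of merged exons. TERC shares 81.0% of its exon bases on the same strand, whereas TERT and POT1 share 0%. As for TERC, the part of the shared exons in the values of TEN1, RTEL1 and RAD50 was not tested.

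One gene of the lists could be compared with cells without treatment. ZBTB48 encodes TZAP, a zinc finger protein that binds telomeric repeats directly and trims long telomeres. The gene (ENSG00000204859, chromosome 1, bases 6579994 to 6589280) lies among the 280 genes analysed in both the control and the etoposide libraries, 118 of which passed the filter on low counts and were tested in one fit of the 4 libraries. ZBTB48 had 222 and 166 counts in control cells and 325 and 225 in etoposide-treated cells. Normalised counts were 199.8 and 205 in the control libraries and 245 and 268 in the etoposide libraries. Both etoposide libraries were above both control libraries, and groups that did not overlap, in either direction, were found for 72% of the genes tested.

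ZBTB48 averaged 203 ± 4.01 normalised counts in control cells and 256 ± 16.8 with etoposide (SD, n = 2 per group), and the log2 fold change was 0.34 (standard error 0.14, 95% interval 0.027 to 0.64). It did not pass the test of edgeR, by quasi-likelihood with Benjamini-Hochberg adjustment, which gave an adjusted p of 0.0844 and an unadjusted p of 0.0358. A call needed an adjusted p below 0.01 together with a log2 fold change beyond 1, and 4.24% of the genes tested, 5 of 118, were called. The value moved with the scaling, as the median over all tested genes was 0.029 with TMM normalization but 0.36 with upper-quartile scaling, under which ZBTB48 was at 0.67 with an adjusted p of 0.00222, past 0.01 but short of the fold threshold. With the sum of the listed genes alone it was at 0.51 with an adjusted p of 0.0109. ZBTB48 stood above the median of the same fit by 0.31 with TMM and by 0.23 to 0.42 over 12 alternatives. Legends of the study use the term technical replicates and, for Hi-C panels, define it as separately cultured cells. No source gives that definition for the RNA libraries, so the p-value measures the spread between these libraries, which may be technical.

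**Figure D5:**
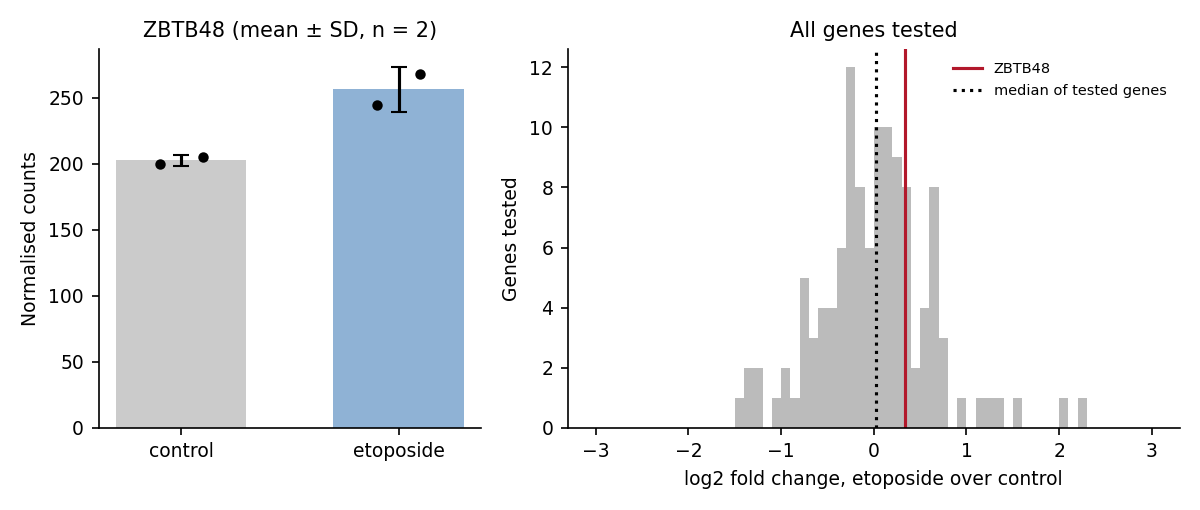
Left, normalised counts of ZBTB48 in the 2 control and 2 etoposide libraries (points) with mean and SD; right, histogram of the log2 fold change of the 118 genes tested, with ZBTB48 at 0.34 and the median over tested genes at 0.029. Both etoposide points lie above both control points, and ZBTB48 lies inside the bulk of the genes.

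Many chromosome ends carry copies of a few gene families next to the telomeric repeats, among them WASH and DDX11L. In the etoposide libraries the 9 listed WASH genes had 69 to 365 and 64 to 263 counts each and summed to 85.6 and 90.1 CPM, and the 8 listed DDX11L genes summed to 7.97 and 6.67. These sums include WASH2P and DDX11L2, which lie inside chromosome 2 from base 113588550 to 113601261, and DDX11L2 alone held 94 of 171 and 56 of 95 DDX11L counts. The copies are nearly identical and their reads can be split between them, so single values are uncertain. WASH7P and WASH9P lie at the end of the short arm of chromosome 1 and were tested. WASH7P had 41 and 58 counts in control cells and 98 and 78 in etoposide-treated cells, which gave a log2 fold change of 0.64 ± 0.32 (SE) and an adjusted p of 0.132 by edgeR. Without the second control library it was 1.22 with an adjusted p of 0.0038, past both thresholds, and without the first 0.23. WASH9P had 191 and 156 counts in control cells and 230 and 141 in etoposide-treated cells, which gave −0.090 ± 0.16 (SE) and an adjusted p of 0.667 by edgeR, and its sign turned with upper-quartile scaling, with the sum of the listed genes and without the second control library.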

How the data were processed

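RNA-Seq of poly-A RNA was analysed in 6 U2OS libraries, grouped by the sample labels. The authors mapped read pairs to GRCh38 by HISAT2 2.1.0 and deposited unnormalized counts per Ensembl gene from featureCounts (Subread 2.0.0), 1 table per library. Strand and multi-mapping settings and the annotation release are not given in the sources used here. In the control and adriamycin libraries the first 220 to 292 genes were analysed, and an incomplete last line in each was left out. Sums over these genes, 59357 to 115379 counts, are not library depths. The adriamycin counts entered no comparison.

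Symbols, coordinates and exon lengths were from GENCODE release 44, which named 60357 of 67140 identifiers (89.9%). Levels were CPM over all gene counts, divided by the length of merged exons, with the longest and the canonical transcript as alternatives. Etoposide and control libraries were compared with edgeR 4.0.16 (R 4.3.3) on the counts, by the quasi-likelihood test with TMM normalization, edgeR's default filter and Benjamini-Hochberg adjustment over 118 genes, without a replicate block. The adjusted p under 0.01 and log2 fold change over 1 follow the study's thresholds. DESeq2 1.42.0 was an alternative. Intervals and floors cover counting error only. Replicates were not copies of each other: gene by gene, binomial p values under 0.05 made up 23.4% of genes in control and 30.7% in etoposide.

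The members and lists were chosen with earlier results of these data known. Named genes were all members, the 3 highest and 3 lowest of each other list, list genes with a level under 1 in both libraries and list genes with control values. Of these, 1 gene of the ALT recombination list that this rule names is not reported here.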

Additional observations from a re-analysis of the deposited data

How the results depend on the processing

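With 2 libraries of 1 condition, the levels carry no test, and the depth limits what can be said of TERT to an upper bound. For TERC the bound covers counting error only. It does not cover the use of poly-A RNA or the second entry for the same RNA, whose part was not tested. Other scalings of the etoposide libraries (TMM, DESeq2's size factors, protein-coding counts) changed the 10 member levels by factors of 0.983 to 1.03, and 7 to 8 members had a level of at least 1 in both libraries under all 7 alternatives. The canonical transcript length was chosen after seeing the data. The SD of the log2 ratio between the etoposide libraries fell from 0.34 to 0.19 with at least 100 counts in both.

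Against control, 2 of 118 genes were called higher and 3 lower with etoposide. The higher genes numbered 4 at an adjusted p under 0.05 and 5 with upper-quartile scaling. With 1 library left out, where a lone library is assumed to vary like the other group, 0 to 4 genes were higher and 0 to 3 lower, and both were 0 without either etoposide library. The causes were not tested. ZBTB48 kept its sign and was not called in 12 alternatives, at 0.33 to 0.67 with adjusted p of 0.00222 to 0.208. With upper-quartile scaling its adjusted p of 0.00222 passed 0.01, and the log2 fold change of 0.67 stayed under 1. WASH9P turned to 0.25 with upper-quartile scaling, to 0.087 with the sum of the listed genes while leaving out 1 library gave −0.15 to 0.051, the highest without control replicate 2.

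Deviations of same-numbered libraries correlated at −0.18 over 104 genes. With 2 libraries per group, this correlation cannot show whether replicate numbers mark pairs. With the replicate block 2 genes were higher and 3 lower, and ZBTB48 was at 0.34. With crossed numbers, chosen after seeing the data, 2 genes were higher and 3 lower.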
